A study of Mus musculus with 2 samples.

Results

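Mature osteoblasts of the mouse long-bone periosteum were taken as the cells that carried several genes of late osteoblast life at once, and 239 of them were found among 9169 cells that passed quality control. A cell was counted when it had at least 500 genes, at least 500 unique molecular identifiers (UMIs, one per captured transcript), and at most 10% of its UMIs from mitochondrial genes. A counted cell was a member when at least 3 of the 6 genes Bglap2, Ibsp, Ifitm5, Dmp1, Phex, and Col22a1 had at least 2 UMIs, when Col2a1 was under 10 and Col10a1 under 20 UMIs, and when Ptprc, the gene of the leukocyte antigen CD45, was at 0. Library 1 held 84 members, or 1.34% of its 6276 cells (exact binomial 95% interval 1.07 to 1.65%). Library 2 held 155, or 5.36% of its 2893 cells (4.57 to 6.24%). The members were therefore chosen by measured values, and the levels of the gate genes describe the choice and are not a result.

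The study asked about periosteal stem cells (P-SSCs) of human and mouse bone, and its mouse scRNA-Seq data are 2 libraries labelled as replicates 1 and 2 of 1 condition. The labels give WT mice of strain C57BL6, 4 weeks old, and a sort of collagenase-released femur and tibia periosteum by CD45, CD31, Ter-119, and DAPI. The number of mice behind a library is not given, and with 1 condition and 2 libraries no group could be tested, so every value is given for each library apart. Library 1 held 9932 barcodes with 100808649 UMIs and library 2 held 3659 barcodes with 33306452 UMIs, and the 8 barcodes found in both included no member.

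Several measurements bear on the labels. The feature list of both libraries includes the reporter genes EGFP and tdTomato, which wild-type mice do not carry. EGFP had 0 UMIs in library 1, while 28 of the 155 members of library 2 had 387 UMIs of it (129 CPM, or UMIs per 1000000 UMIs of the summed cells, against 1.66 CPM in Ptprc-positive cells, 323 CPM in the other Ptprc-negative cells, and 975.5 CPM in cells with cartilage collagens). tdTomato had 123 UMIs in members of library 1 (52.0 CPM, against 17.7 CPM in Ptprc-positive cells and 12.9 CPM in the other Ptprc-negative cells) and 643 in library 2 (214.5, against 46.8 and 181.5 CPM). Members were therefore not the cells richest in EGFP. A tdTomato UMI was present in 60.7% and 59.4% of members, whose median depths were 28936 and 19379 UMIs, and in 15.8% and 24.2% of the B-cell-marked cells, whose medians were 4548 and 4277. At 1000 UMIs per cell the shares were 5.57% and 15.0% of members against 2.94% and 5.65% of those B cells. Members with Xist but no Y-linked transcript numbered 21 and 49, and members with the reverse numbered 46 and 62, so both libraries held cells of female and male pattern.

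The sort did not leave stromal cells alone. Of the other Ptprc-negative cells, 1309 of 3212 and 834 of 1959 carried at least 2 B-cell markers at 2 or more UMIs, and 2456 and 327 carried at least 2 erythroid markers. The erythroid count does not set the other cells apart, since 83 of 84 and 28 of 155 members also carried 2 erythroid markers (98.8% and 18.1%, against 76.5% and 16.7% of the other cells). At least 2 neutrophil markers were present in 72 of 84 and 1 of 155 members (85.7% and 0.645%, against 41.6% and 1.33%). These shares are at each cell's own depth, with medians of 28936 and 19379 UMIs in members and 8692 and 6248 in the other cells. Erythroid transcripts were also found in members, with hemoglobin Hbb-bs in 84 of 84 members of library 1 (1946 CPM over the summed cells, median 556 CPM per cell) and at 106 CPM in library 2. The 10 erythroid genes summed to 3504 and 225.5 CPM in members and to 119536 and 26913 CPM in the other cells. For the 10 neutrophil genes the sums were 427 and 41.4 CPM in members, led by S100a9, and 5937 and 3883 CPM in the other cells. B-cell markers summed to 77.0 and 144 CPM in members, led by Ebf1, and to 2037 and 3878 CPM in the other cells. At least 2 of them were present in 2 of 84 and 4 of 155 members. The part of this RNA in the results was not tested.

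Osteoblasts are the cells that build bone. They secrete type I collagen as osteoid, load it with acidic and Gla-rich proteins, and supply phosphate at their surface through tissue-nonspecific alkaline phosphatase so that mineral forms. They arise from mesenchymal progenitors under the transcription factors Runx2 and Sp7, and some become enclosed in the matrix as osteocytes, which make Dmp1, Mepe, Phex, and later sclerostin.

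The gate left a continuous edge. Members with 3, 4, 5, and 6 gate genes numbered 12, 22, 24, and 26 in library 1 and 60, 58, 32, and 5 in library 2. Just outside lay 16 and 39 cells with 2 gate genes. Bone sialoprotein Ibsp, which binds hydroxyapatite, was at 18403 CPM in the 12 cells just inside and 1801 CPM in the 16 just outside in library 1. In library 2 the same values were 13554 and 6177 CPM. Bglap2 went the other way, with 155 CPM just inside and 619 CPM just outside in library 1, and 1089 and 2090 CPM in library 2. A further 8 and 2 cells with at least 3 gate genes were left out for a Ptprc UMI, and 11 and 9 for cartilage collagen. Over all members Ibsp reached 2 UMIs in 100% and 99.4% of cells, Ifitm5, a membrane protein of mineralizing osteoblasts, in 95.2% and 89.7%, and the osteocyte genes Dmp1 in 50% and 25.8% and Phex in 60.7% and 22.6%.

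The label was checked against osteoblast genes that the gate did not use. Col1a1 had a UMI in 84 of 84 and 155 of 155 members, and in 29.3% and 15.7% of B cells. At 1000 UMIs per cell it was in 100% and 99.6% of members against 5.13% and 3.56% of B cells. The osteoblast transcription factor Sp7 was detected in 91.7% and 76.8% of members and in 0.317% and 0.356% of B cells. Thinned to 1000 UMIs per cell, these shares were 16.96% and 12.9% of members against 0.0329% and 0.0228% of B cells. Osteocalcin, the protein by which mature osteoblasts are usually known, was less uniform. Its gene Bglap was under 100 CPM in 18 of 84 and 55 of 155 members, so the word mature does not describe every member by this gene. Among the other unused markers, Alpl was at least 4-fold above the other Ptprc-negative cells in both libraries. Runx2 and Sparc were not. Sparc had a median of 40404 and 27922 CPM per member, and the other Ptprc-negative cells of library 2 held 9097 CPM of it. Shares set against B cells do not part members from other cells of the bone lineage. No member carried 2 endothelial markers, and 3 and 5 members carried 2 chondrocyte markers. Markers shared with neighbouring cells were frequent. At least 2 hypertrophic chondrocyte markers, a list that holds Alpl, Spp1, Mef2c, and Panx3, were present in 83 of 84 and 143 of 155 members (98.8% and 92.3%, against 11.4% and 20.2% of the other Ptprc-negative cells). This list summed to 8859 and 12651 CPM in members, most of it Spp1, with 1 and 0 of its 10 genes at 0. At least 2 osteoclast markers were present in 23 and 38 members (27.4% and 24.5%, against 3.71% and 6.58% of the other Ptprc-negative cells), and at least 2 tenocyte markers in 10 and 29 (11.9% and 18.7%, against 2.77% and 26.0%). These shares too are at each cell's own depth, which was greater in members. The 10 osteoclast genes summed to 223 and 376 CPM in members and to 143 and 377 CPM in the other cells. The part of other cell types in the members was not tested.

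Bglap and the phosphoprotein gene Spp1 were the genes with the largest variance over mean of UMIs among members, and the osteocyte gene Mepe was found in few of them. The 250 bases before their starts are shown for reference, because Bglap is a textbook target of Runx2. They are given 5′ to 3′ on the gene's strand (RefSeq, GRCm38.p6), with the core RUNX letters ACCACA, or TGTGGT on the other strand, in capitals.
Bglap (chr3:88384467-88384716, minus strand): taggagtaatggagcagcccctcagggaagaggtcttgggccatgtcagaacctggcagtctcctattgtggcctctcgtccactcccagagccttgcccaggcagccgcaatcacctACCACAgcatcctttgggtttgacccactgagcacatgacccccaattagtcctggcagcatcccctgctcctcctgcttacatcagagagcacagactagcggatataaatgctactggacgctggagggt
Spp1 (chr5:104434861-104435110, plus strand): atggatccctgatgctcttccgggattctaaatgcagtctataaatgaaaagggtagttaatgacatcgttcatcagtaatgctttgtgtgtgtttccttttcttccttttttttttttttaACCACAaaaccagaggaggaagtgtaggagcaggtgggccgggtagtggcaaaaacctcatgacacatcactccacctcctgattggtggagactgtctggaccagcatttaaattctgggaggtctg
Mepe (chr5:104325079-104325328, plus strand): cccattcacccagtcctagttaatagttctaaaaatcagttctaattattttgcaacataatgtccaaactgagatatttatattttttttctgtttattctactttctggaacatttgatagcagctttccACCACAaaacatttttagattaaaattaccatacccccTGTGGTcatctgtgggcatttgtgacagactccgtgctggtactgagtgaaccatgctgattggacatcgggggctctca
The match lies 132 bases before the Bglap start and 128 before that of Spp1, and the farther of the 2 matches of Mepe lies 118 before its start. Spp1 has another RefSeq start whose window has no match. The windows of Bglap3, Col1a2, Sparc, and Alpl were also searched and have no match. The windows printed are thus the ones with a match among the bone genes searched. Of the 20 leading genes ranked below, 15 had a window, and 2 of these had a match. These letters occur in 4614 of all 32851 windows (14.0%), in 1420 of 13004 windows of the genes compared below (10.9%), and in 27 of 260 windows of the genes that were higher in members (10.4%). Counted by gene, they occur before 1327 of 10163 genes compared (13.1%) and 26 of 189 higher genes (13.8%). A match is a run of letters and not a measured site. Of the 351 stretches of 90 bases in the Bglap transcripts, 212 (60.4%) are also found in Bglap2, so the split of reads between these neighbouring genes is uncertain. None is shared with Bglap3. The genes lie side by side on chromosome 3 (GRCm38, GENCODE M21), Bglap at chr3:88383501-88384464, Bglap2 at chr3:88377736-88378699, and Bglap3 at chr3:88368616-88372743, all on the minus strand.

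Members were compared with the other Ptprc-negative cells over 13075 genes with at least 20 UMIs in each library, leaving out the gate and exclusion genes. A gene was called when its CPM over the summed cells differed at least 4-fold in the same direction in both libraries. This is a description, because the same cells were chosen by genes of the same profile. Called higher were 267 genes (2.04%) and called lower 1196 (9.15%), of which 280 had no UMI in members of a library and rest on a floor of 3 UMIs. Over all genes compared, the median log2 ratio was -0.26 in library 1 and -0.60 in library 2. Intervals in parentheses are exact 95% intervals of the ratio and cover counting error only, not the spread between mice.

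The collagen of bone took the largest share of the members' RNA. Col1a1 held 10.1% and 8.79% of all member UMIs, and the 10 most abundant genes 28.7% and 22.5%, against 15.3% and 7.58% for those of the other cells. Col1a1, which encodes the α1 chain of type I collagen, was at 100877 CPM against 357 CPM in library 1 (283-fold, 278 to 287) and at 87910 against 4679 CPM in library 2 (18.8-fold, 18.6 to 18.9). Its partner chain Col1a2 was 245-fold and 13.9-fold higher. Bglap was at 18593 against 155 CPM (120-fold, 117 to 123) and at 9757 against 618 CPM (15.8-fold, 15.4 to 16.1). Bglap3, the third osteocalcin copy, was 118-fold and 12.9-fold higher.

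Of 24 bone matrix genes compared, 10 were called higher and 1 lower, with a median log2 ratio of 4.50 and 1.43. Among the minor collagens, Col24a1, a fibrillar collagen of bone, was at 111 and 66.7 CPM (230-fold and 18.2-fold), the transmembrane collagen Col13a1 at 221 and 107 CPM (263-fold and 15.7-fold), and Col5a2, a regulator of fibril size, at 3078 and 1669 CPM (123-fold and 5.34-fold). Spp1 was not called, at 7358 and 11355 CPM and 3.92-fold and 1.67-fold. Cells with cartilage collagens held 38043 and 18593 CPM of it, and their part in this was not tested. Mgp, the matrix Gla protein that inhibits mineral deposition, was the matrix gene called lower, at 11.0 against 1121 CPM and 12.01 against 4282 CPM. The small proteoglycan Dcn parted the libraries, 54.0-fold higher in library 1 and at 0.634 times the other cells in library 2. The fibroblast-gated cells, defined below, numbered 18 in library 1 and 312 in library 2, and their part in this was not tested.

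**Figure D1:**
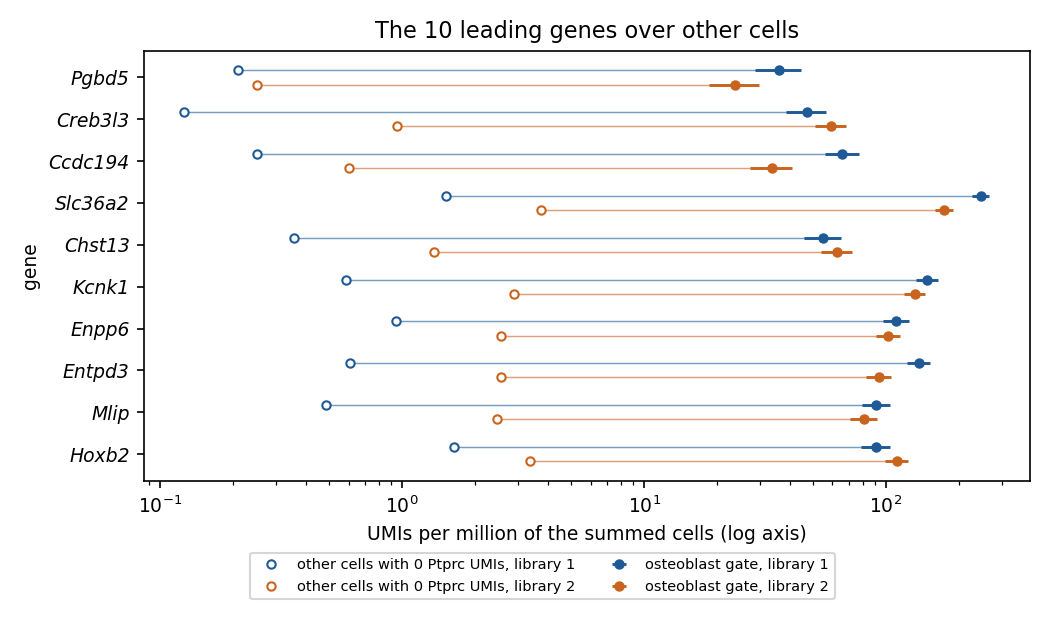
CPM of the summed cells on a log axis in members (filled points, bars are exact 95% counting intervals) and in the other Ptprc-negative cells (open points), by library, for the 10 genes with the largest smaller ratio of the libraries. The line between the points is longer in library 1 for each gene, as with Pgbd5 (172-fold and 94.4-fold) and Hoxb2 (55.4-fold and 33.0-fold).

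The leading genes were ranked by the smaller ratio of the libraries. By this measure the transposase-derived gene Pgbd5 led with 172-fold and 94.4-fold, though only at 36.0 and 23.7 CPM. The liver-type transcription factor gene Creb3l3 was at 47.0 and 59.1 CPM (373-fold and 62.0-fold) and the coiled-coil gene Ccdc194 at 66.0 and 33.7 CPM (262-fold and 56.0-fold). Creb3l3 is better known from hepatic lipid metabolism, and its relative Creb3l1 is the one known from the collagen secretion of osteoblasts. Membrane transport was represented by the amino acid transporter Slc36a2, at 247 against 1.51 CPM (163-fold, 128 to 212) and 174 against 3.76 CPM (46.1-fold), and by the potassium channel Kcnk1 at 148 and 132 CPM (252-fold and 45.2-fold). Enzymes included the choline phosphodiesterase Enpp6 (117-fold and 39.9-fold), the ectonucleotidase Entpd3 (224-fold and 36.4-fold), the chondroitin sulfotransferase Chst13 (154-fold and 46.1-fold), cysteine dioxygenase Cdo1 at 419 and 315 CPM (187-fold and 22.9-fold), and hepatic lipase Lipc (88.2-fold and 26.6-fold). The most abundant of the 20 was carbonic anhydrase Car3, at 1601 and 1321 CPM (81.3-fold and 21.5-fold). Secreted products among them were the neuropeptide galanin, Gal, at 118 and 97.8 CPM (267-fold and 27.8-fold), and the Wnt-binding carboxypeptidase Cpz at 412 and 441 CPM (277-fold and 27.6-fold). Pgbd5 lies at chr8:124369049-124439658, Slc36a2 at chr11:55158470-55185077, and Car3 at chr3:14863512-14872523 (GRCm38).

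Of 14 transcription factors of the osteoblast lineage compared, 5 were called higher and none lower, and the median log2 ratio was 3.52 and 1.23. Sp7 was at 193 against 4.13 CPM (46.7-fold, 39.4 to 55.5) and at 133 against 18.0 CPM (7.37-fold, 6.38 to 8.53) and the homeobox gene Dlx3 was 53.8-fold and 7.64-fold higher. Runx2 missed the call, at 157 and 110 CPM and 14.6-fold and 3.42-fold. The list hardly set members apart from Alpl-gated cells, defined below. There 1 of 12 genes was called higher, Dlx3, and 2 lower, with medians of 0.53 and -0.21. Of 14 compared with cartilage collagen cells 3 were higher, and of 13 compared with fibroblast-gated cells 6 were higher, with none lower in either.

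Mineralization genes divided. Of 18 compared, 4 were called higher and 2 lower (median log2 ratio 2.38 and 0.28). Alpl, which encodes tissue-nonspecific alkaline phosphatase, was at 549 and 451 CPM (22.7-fold and 4.07-fold), and the citrate transporter Slc13a5 at 194 and 213 CPM (59.6-fold and 8.20-fold). The lipid exporter Spns2 was 30.7-fold and 13.2-fold higher. Called lower were the phosphate transporter Slc20a1, at 6.77 against 29.0 CPM and 6.34 against 31.1 CPM, and the carbonic anhydrase Car2, which erythroid cells also express. Phospho1, the phosphatase of matrix vesicles, had only 11 and 31 UMIs in members and did not reach the 20 UMIs needed in library 1. Compared with Alpl-gated cells, defined below, none of 17 mineralization genes was called higher and 2 lower. Beside cartilage collagen cells 2 of 17 were higher and 3 lower, and beside fibroblast-gated cells 5 of 15 were higher and none lower.

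Collagen is trimmed and crosslinked on its way out of the cell. Of 25 genes for this, 6 were called higher and none lower, with a median log2 ratio of 3.93 and 1.04. The collagen chaperone Serpinh1 was at 4130 and 4427 CPM (31.5-fold and 4.42-fold), the crosslinking enzyme Lox at 892 and 503 CPM (47.5-fold and 6.61-fold), and the C-propeptidase Bmp1 at 645 and 543 CPM (42.4-fold and 5.98-fold). Of 34 genes of the general secretory pathway, with a median log2 ratio of 1.74 and 1.05, 1 was called higher and none lower. It was Creb3l1, which drives collagen export genes, at 416 and 232 CPM (113-fold and 8.19-fold). The translocon subunit Ssr4 was 4.95-fold and 2.94-fold higher. Against Alpl-gated cells, defined below, none of 23 trimming and crosslinking genes was called higher and 1 lower. Against cartilage collagen cells 3 of 23 were higher and 2 lower, and against fibroblast-gated cells 1 of 23 was higher and 2 lower.

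Signalling genes gave a mixed picture. Of 24 Wnt genes, 3 were called higher and 1 lower, with medians of 2.46 and -0.82 that differ in sign. The higher ones were the sclerostin-binding receptor Lrp4, at 26.7 and 47.4 CPM (24.9-fold and 5.76-fold), the Wnt antagonist Dkk1, at 29.2 and 19.7 CPM, and the transcription factor Tcf7, at 62.2 and 60.4 CPM (45.0-fold and 10.8-fold). Its relative Lef1, which B-cell precursors also use, was lower at 2.54 against 33.7 CPM and 2.67 against 72.2 CPM. Dkk1 was uneven among members, with 56.5% and 64.4% of its UMIs in 5 cells of each library. Of 29 BMP and TGF-β genes, 1 was called higher and 3 lower. The higher one was Bmp3, an inhibitor of osteogenic BMP signalling, at 127 and 69.7 CPM (132-fold, 96.3 to 184, and 15.4-fold). Of 13 hormone receptor genes, the vitamin D receptor Vdr (28.7-fold and 7.45-fold) and the LIF receptor Lifr (16.9-fold and 5.93-fold) were called higher. The parathyroid hormone receptor Pth1r was abundant but not called, at 526 and 514 CPM and 10.1-fold and 1.92-fold, with 1175 and 763 CPM in the cartilage collagen cells. Compared with Alpl-gated cells, defined below, none of 15 Wnt genes was called higher and 2 lower. Of 22 BMP and TGF-β genes 1 was higher and 3 lower there, and of 11 hormone receptor genes none was higher and 1 lower.

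Among IGF genes none was higher and 5 of 10 were lower. Igfbp5, an IGF-binding protein, was at 11.4 against 108 CPM and 17.02 against 335 CPM. Igf1 had 0 UMIs in members of library 1 and 10.3 CPM in library 2, against 11.9 and 157 CPM. The chemokine Cxcl12, which retains hematopoietic cells in marrow, was the 1 of 9 osteoclast-regulating and niche genes called, at 4.23 against 189 CPM and 2.67 against 115 CPM.

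Cell contact and matrix turnover genes were more often higher than lower against the other Ptprc-negative cells. Of 19 adhesion and integrin genes, 6 were called higher and 1 lower, led by N-cadherin, Cdh2, at 391 and 294 CPM (48.8-fold, 43.3 to 55.1, and 19.0-fold, 16.6 to 21.6). The adhesion molecule Cadm1 was 99.4-fold and 12.7-fold higher, the muscle cadherin gene Cdh15 67.0-fold and 20.3-fold, and connexin 43, Gja1, the channel that couples osteoblasts and osteocytes, 21.02-fold and 4.66-fold. Of 19 proteases and inhibitors, 5 were called higher and none lower. The membrane protease Mmp16 was at 183 and 100.1 CPM (213-fold and 17.2-fold) and Serpinf1, which encodes the secreted factor PEDF, at 2857 and 3621 CPM (148-fold and 7.56-fold). The osteoclast protease gene Ctsk was at 163 and 276 CPM in members. It held most of the 223 and 376 CPM of the 10 osteoclast markers, of which 5 and 4 were at 0. Against Alpl-gated cells, defined below, none of 16 adhesion and integrin genes was called higher and 3 lower. Of 18 proteases and inhibitors, 2 were higher and 3 lower. Against cartilage collagen cells 5 of 17 and 7 of 18 were higher, and 1 of each list was lower. Against fibroblast-gated cells 6 of 15 and 4 of 17 were higher, and 3 of each list were lower.

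Osteocyte genes differed in how widely they were found. Of 16 osteocyte genes compared, 6 were called higher and 1 lower (median log2 ratio 3.57 and 0.52). The sphingomyelin synthase Sgms2 was broadly present, at 945 and 512 CPM (40.7-fold and 5.13-fold). Mepe, a mineral-binding phosphoprotein of osteocytes, came from 5 cells with 161 UMIs in library 1 and from 1 cell with 87 UMIs in library 2, so its ratios of 12.3 and 4.52 rest on those cells. The library 1 cell with most of it held 112 Mepe, 101 Dmp1, and 45 Col1a1 UMIs out of 8036, and the library 2 cell 87 Mepe, 230 Dmp1, and 3 Col1a1 UMIs out of 5989. Both thus carried little collagen message for a member. Sclerostin, Sost, had 0 UMIs in members of library 1 and 13 in library 2, of which 12 were in 1 cell. Fgf23 had no UMI in members of either library, which allows up to 3 UMIs in 2363230 and 2997123. Compared with Alpl-gated cells, defined below, none of 14 osteocyte genes was called higher and 1 lower. Beside cartilage collagen cells 3 of 15 were higher and 3 lower, and beside fibroblast-gated cells 6 of 14 were higher and 3 lower.

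Most cell cycle genes compared were lower in members than in the other Ptprc-negative cells. Of 20 cell cycle genes, 13 were called lower and 1 higher, and the median log2 ratio was -3.80 and -2.41. Mki67, the proliferation marker, was at 36.8 against 614.5 CPM and 13.4 against 113 CPM. The higher one was the cell cycle inhibitor Cdkn2a, at 8.46 and 18.0 CPM (14.4-fold and 5.99-fold). The B-cell and erythroid precursors named above are part of the comparison cells, and their part in this difference was not tested. Against Alpl-gated, cartilage collagen, and fibroblast-gated cells, defined below, only Cdkn1c was called, lower, of 16, 20, and 18 cell cycle genes compared. The median log2 ratios there were -0.11 and -1.02, -0.77 and 0.59, and -0.24 and 0.54. No immediate early or stress gene of 19, no oxidative phosphorylation gene of 20, and no gene of 12 compared from the Hox list, which covers the HoxA, HoxC, and HoxD clusters, was called in either direction, and of 19 glycolytic genes 1 was lower. Hoxb2 is not on that list and was among the 20 leading genes, at 90.6 and 111 CPM (55.4-fold and 33.0-fold). Marker lists of other cell types ranged from wholly to not called lower. Called lower were 10 of 10 B-cell genes, 10 of 10 erythroid genes, 9 of 9 muscle genes, 11 of 12 chondrocyte genes, 8 of 10 neutrophil genes, and 6 of 10 fibroblast genes. Fewer were called lower for Lepr+ stromal cells (4 of 9), nerve cells (3 of 7), endothelial and mural cells (3 of 9 each), monocytes (2 of 8), and tenocytes (2 of 10, median log2 ratio 0.20 and -5.42). None of 5 osteoclast genes was called, and of 10 hypertrophic chondrocyte genes Alpl was higher and Ihh lower.

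**Figure D2:**
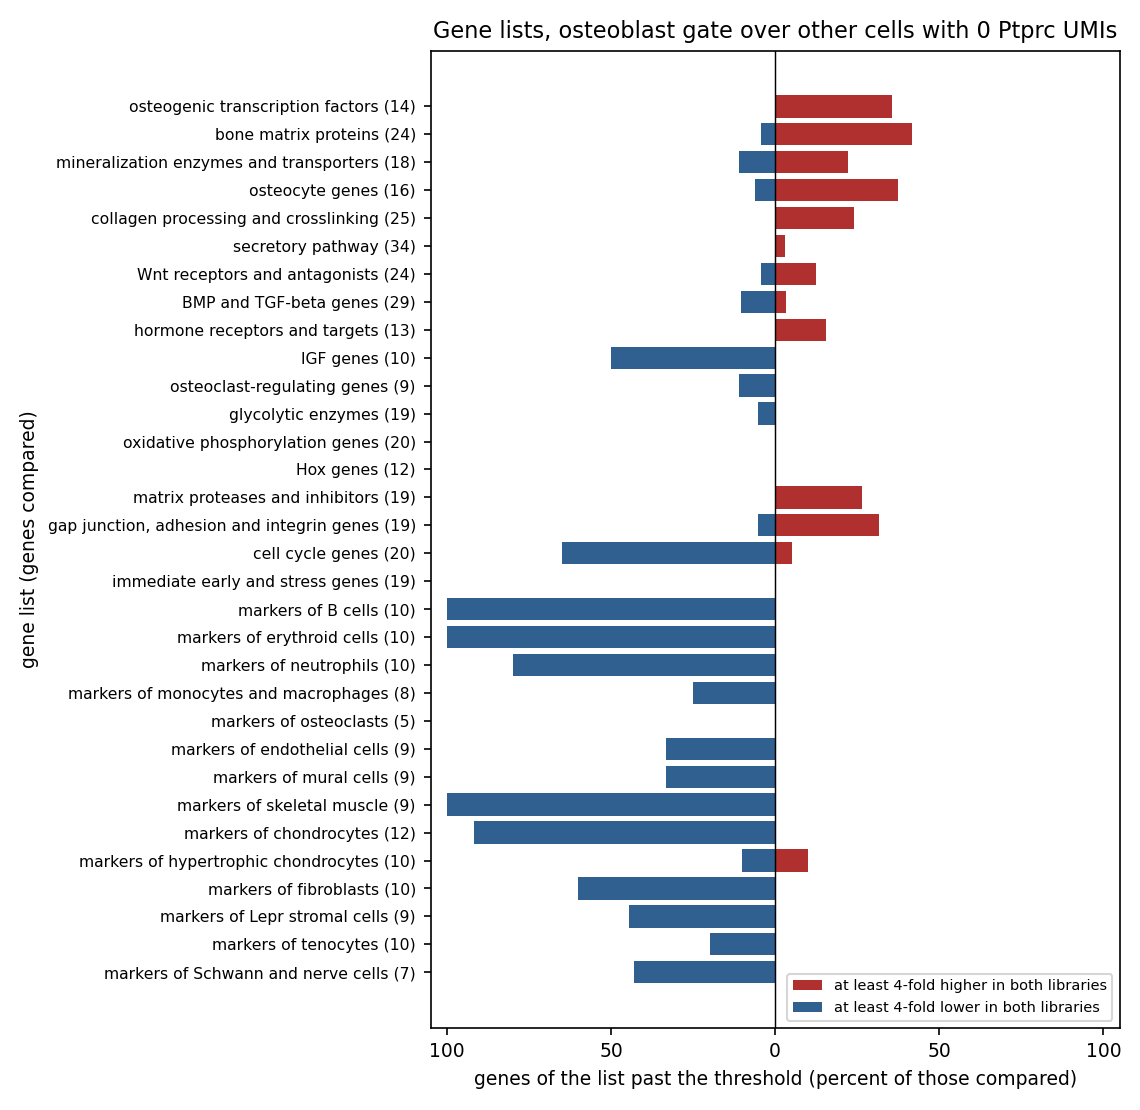
Percent of the compared genes of each list (number in parentheses) that were at least 4-fold higher (right, red) or lower (left, blue) in both libraries in members than in the other Ptprc-negative cells. Bone matrix proteins show 10 higher and 1 lower of 24, cell cycle genes 1 higher and 13 lower of 20, and oxidative phosphorylation genes none of 20.

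The closest cells in the same lineage were sought by a rule of their own: fewer than 2 gate genes at 2 UMIs, at least 2 UMIs of Alpl, and at least 1 UMI of Runx2 and Sp7 together. It found 40 and 33 cells. Of these, 37 of 40 and 14 of 33 carried at least 2 markers of Lepr+ marrow stromal cells, so they are called Alpl-gated cells here. Over 7652 genes, leaving out Alpl, Runx2, and Sp7 besides the rule genes, 38 (0.497%) were called higher in members and 241 (3.15%) lower, with medians of -0.63 and -0.44. Of the 38, 18 rest on the floor of 3 UMIs, as the Alpl-gated cells held 356440 and 294281 UMIs in all. The balance differed with the scaling. With factors of the trimmed mean of M values (TMM), the medians became 0.22 and 0.25, and 120 genes were higher and 116 lower.

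The higher side held genes of several kinds, and of 23 bone matrix genes compared 3 were called higher (Bglap, Bglap3, and Col11a2) and 3 lower. Bglap was at 18593 against 25.2 CPM (736-fold) and 9757 against 438 CPM (22.3-fold). The rules of both groups use Bglap2, which shares sequence with Bglap, so this ratio is tied to the rules. Col11a2, a cartilage-type fibrillar collagen chain, was at 2091 CPM against 0 UMIs in library 1 (at least 248-fold) and at 1469 against 74.8 CPM (19.7-fold) in library 2. Atf3, a stress-induced transcription factor, had the largest smaller ratio, at 375 against 14.0 CPM (26.8-fold) and 490 against 13.6 CPM (36.1-fold). Its UMIs were spread unevenly, with the 5 cells richest in it holding 44.1% and 41.1% of them. Car3 was 28.5-fold and 12.5-fold higher. Gal had 0 UMIs in Alpl-gated cells of both libraries, so its level in members was above the floor by 14.0 times or more and by 9.59 times or more. Col1a1 did not reach the call, at 163-fold and 3.67-fold. The reporter tdTomato was called higher, at 52.0 against 5.61 CPM and 214.5 against 51.0 CPM, where the library 1 value of the Alpl-gated cells is 2 UMIs.

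Of the fixed marker lists, 6 of 7 Lepr+ stromal genes and 4 of 4 mural genes compared were called lower. Cxcl12 was at 4.23 against 11867 CPM and 2.67 against 486 CPM. Igfbp5 was at 11.4 against 5272 CPM and 17.02 against 472 CPM, Mmp9, a gelatinase of bone resorption, at 4.65 against 1526 CPM and 39.0 against 4346 CPM, and the pericyte receptor Pdgfrb at 1.69 against 785.5 CPM and 5.01 against 272 CPM. Mmp13, a collagenase of osteoblasts and hypertrophic cartilage, was at 147 against 1714 CPM and 127 against 4353 CPM. Tnfsf11, the osteoclast-inducing ligand RANKL, was at 1.27 against 129 CPM and 2.67 against 40.8 CPM. The genes left out of the calls here are values of the rule, with Runx2 at 157 CPM in members and 328 CPM in Alpl-gated cells of library 1, and 110 and 265 CPM in library 2.

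Cartilage was the tissue next to bone in these libraries. The 111 and 312 Ptprc-negative cells with at least 10 Col2a1 or 20 Col10a1 UMIs were compared over 9122 genes, of which 239 (2.62%) were higher in members and 430 (4.71%) lower, with medians of -0.04 and -0.23. Col1a1 was 15.1-fold and 27.5-fold higher in members, Bglap 4.93-fold and 5.75-fold, and Cdh2 12.2-fold and 18.8-fold. Sp7 and Runx2 were not called, at 3.099-fold and 3.11-fold and at 1.44-fold and 1.56-fold. Alpl was likewise near, at 1.57-fold and 1.85-fold. Bglap shares sequence with the gate gene Bglap2, so its ratio here and in the other comparisons is tied to the rule.

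Lower in members than in cartilage collagen cells were Mgp, at 11.0 against 27530 CPM and 12.01 against 11588 CPM, and the cell cycle inhibitor Cdkn1c, at 22.0 against 1870 CPM and 16.7 against 912 CPM. Of 18 glycolytic genes, 7 were lower and none higher, with medians of -1.74 and -1.75 against -0.04 and -0.23 for all genes. Phosphoglycerate kinase, Pgk1, was at 72.8 against 526 CPM and 78.4 against 573 CPM, and enolase, Eno1, at 58.8 against 458 CPM and 121 against 720 CPM. Of 20 oxidative phosphorylation genes none was called, and their medians were 0.12 and 0.26. Fam20c, the kinase of secreted phosphoproteins, was at 39.3 against 290 CPM and 31.0 against 192 CPM.

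Fibroblast-gated cells had at least 3 of 7 fibroblast genes at 2 UMIs, and numbered 18 and 312. Over 7923 genes, 148 (1.87%) were higher in members and 516 (6.51%) lower, with medians of -0.47 and -0.30. With TMM factors 283 were higher and 372 lower. Bglap was at 18593 and 9757 CPM in members and at 8.81 and 10.9 CPM in these cells, and Alpl was 62.3-fold and 85.3-fold higher. Col1a1 was 14.7-fold and 8.45-fold higher, since these cells also made it, at 6870 and 10400 CPM. Dcn was not called, at 0.417 and 0.170 times the fibroblast-gated level. Of the genes the study followed, Lrp1, the endocytic receptor it proposed for P-SSCs, was at 115 and 111 CPM in members against 661 and 752 CPM in fibroblast-gated cells, which is 0.174 and 0.148 times. Against all other Ptprc-negative cells the same Lrp1 levels were 8.80 times in library 1 and 0.555 times in library 2. Anpep, the gene of CD13, was at 2.12 and 6.01 CPM against 123 and 150 CPM. The skeletal progenitor factor Prrx1 was at 140 and 72.7 CPM against 480 and 289 CPM and was not called. Both genes of the study's marker pair were thus lower in members than in fibroblast-gated cells in each library. The study reported LRP1 and CD13 as selective for its mouse Prx1+ P-SSC clusters, and as undetectable in mature osteoblasts and chondrocytes. That reading came from plots of clustered cells, which is not the same measure as summed CPM of this gate.

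Members differed widely among themselves. Over 1963 genes with at least 1 UMI per member, the variance of UMIs over their mean had a median of 2.03 and 2.38, and it was 2534 and 1264 for Spp1 and 1771 and 1122 for Bglap. The next by the smaller value of the libraries were Gm42418, which overlaps ribosomal RNA, Col1a1, Malat1, Col1a2, Sparc, mt-Atp6, and the heat shock genes Hspa1a and Hspa1b. This measure grows with a gene's abundance and with differences in depth between cells, so levels per cell were also taken as CPM. Bglap ranged from 0 to 145375 CPM in library 1 with a median of 2006 and quartiles of 149 and 14169. In library 2 it ranged from 0 to 153417 CPM, with a median of 788.5 and quartiles of 13.0 and 9220. At 10000 CPM or more lay 25 of 84 and 37 of 155 members, and the 5 richest cells of each library held 48.7% and 38.2% of its UMIs.

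Spp1 was as uneven and followed another order. Its median per cell was 1148 and 1116 CPM, its highest values were 193380 and 224640 CPM, and the 5 richest cells held 53.2% and 37.0% of its UMIs. Col1a1 was far more even, with a median of 91941 and 91497 CPM, quartiles of 71731 to 130635 and 57206 to 137382, and 14.4% and 10.2% of UMIs in the 5 richest cells. Across the 84 and 155 cells, which share library, depth, and the gate, Spearman's rho of Bglap was 0.91 and 0.83 with Bglap3, 0.54 and 0.50 with Dcn, 0.51 and 0.49 with Col1a1, and -0.05 and 0.11 with Spp1. The values with Bglap2 were 0.95 and 0.91, where shared reads and the gate both enter.

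**Figure D3:**
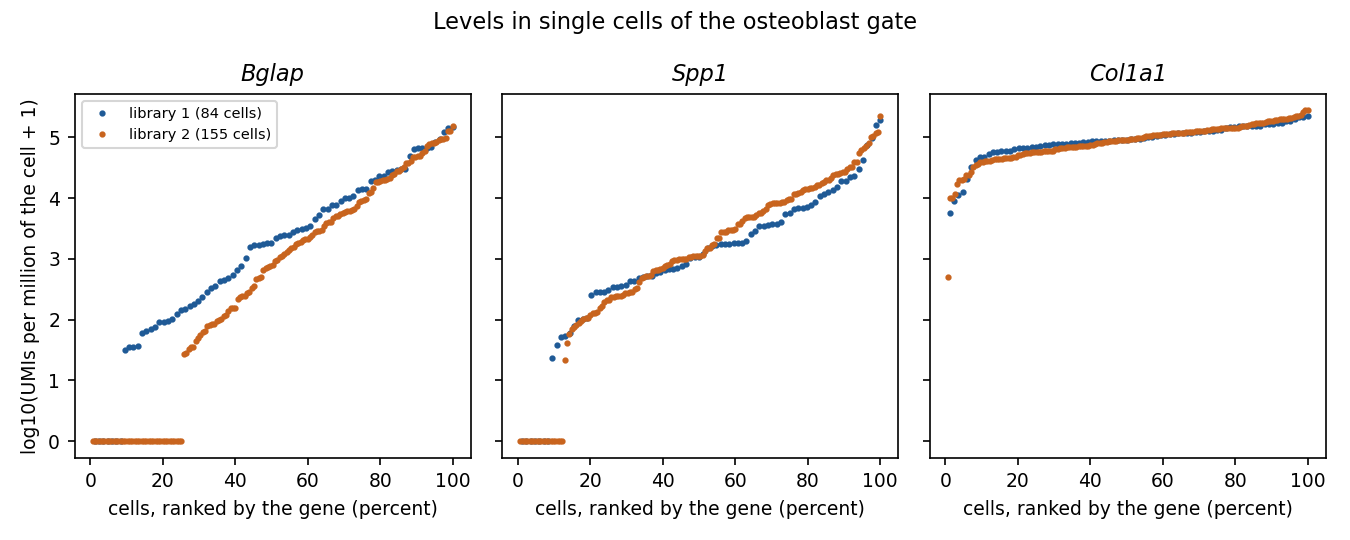
Level of Bglap, Spp1, and Col1a1 in each member as log10(CPM of the cell + 1), with cells ranked by the gene along the x axis (percent of cells) in library 1 (84 cells) and library 2 (155 cells). The quartiles of Col1a1 are 71731 and 130635 CPM in library 1, while those of Bglap are 149 and 14169 CPM.

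Levels also differed with the number of gate genes that a cell passed, a description because the gate fixed that number. Bglap, not itself in the gate but nearly identical to Bglap2, was at 279, 7511, 30943, and 18665 CPM in cells with 3, 4, 5, and 6 gate genes of library 1. In library 2 the values were 3239, 9621, 19128, and 9348 CPM. Col1a1 was at 42841, 86360, 106617, and 119071 CPM and at 68194, 91038, 107262, and 109612 CPM, so it was higher at each step in both libraries. Alpl was at 795, 694, 448, and 492 CPM and at 572, 449, 322, and 226 CPM, lower in cells with 6 than with 3 genes. The median depth was 21939, 20344, 29587, and 32839 UMIs in members with 3 to 6 gate genes of library 1, and 14755, 18877, 24844, and 20864 in library 2. A deeper cell passes more thresholds.

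**Figure D4:**
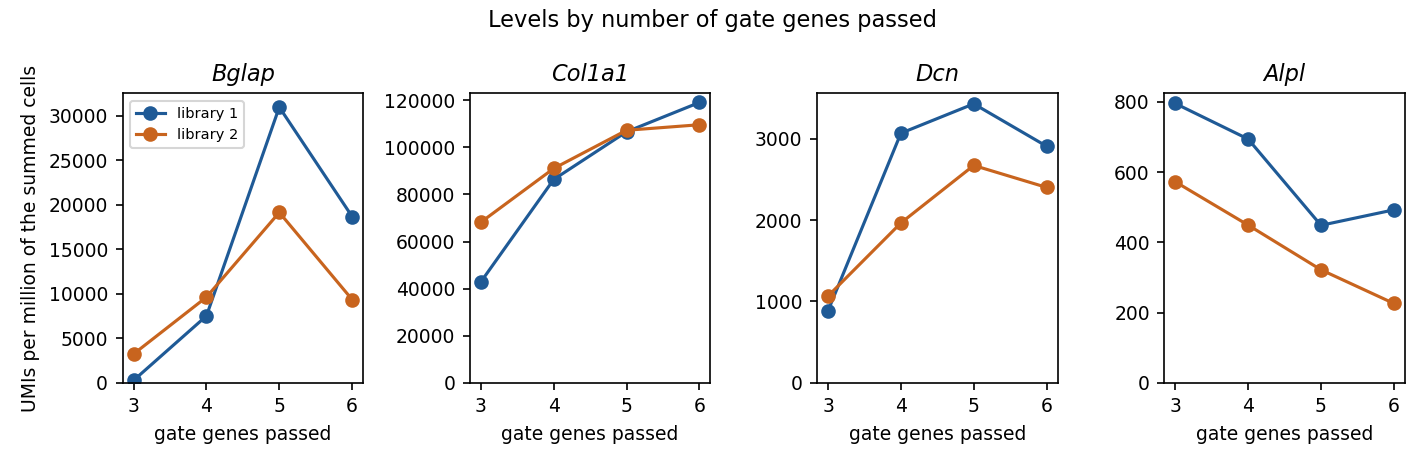
CPM over the summed cells with 3, 4, 5, and 6 gate genes for Bglap, Col1a1, Dcn, and Alpl, by library. Col1a1 is higher with each further gate gene in both libraries (42841 to 119071 and 68194 to 109612 CPM), whereas Alpl is lower with 6 than with 3.

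To follow the osteocalcin gradient, each library's members were split at their median Bglap level, a split chosen after the data had been seen. It gave 42 and 42 cells in library 1 and 77 and 78 in library 2, with median depths of 30738 (high Bglap) and 27773 UMIs, and of 12772 and 23937 UMIs. In library 2 the high-Bglap cells had a median of 2548 genes and 2.25% mitochondrial UMIs, against 3814 genes and 1.51%, and in library 1 of 4300 against 4514 genes and 3.28% in both. The part of depth and cell quality in the split was not tested. The gate also enters this split. Across members, Spearman's rho of Bglap was 0.95 and 0.91 with the gate gene Bglap2 and -0.54 and -0.64 with Ibsp. Over 4164 genes with at least 50 UMIs in each library, 11 (0.264%) were at least 2-fold higher with high Bglap in both libraries and 64 (1.54%) at least 2-fold lower, beside a median log2 ratio of -0.27 and -0.24 for all genes. Higher genes included Nbl1, a secreted BMP antagonist, at 78.6 against 23.9 CPM (3.28-fold) and 94.7 against 15.0 CPM (6.33-fold). Thbs1, thrombospondin 1, was at 323 against 136 CPM and 167 against 35.5 CPM, and the serine protease gene Prss35 at 211 against 54.9 CPM and 57.8 against 22.2 CPM. The ion transport regulator Fxyd6 was 4.07-fold and 4.68-fold higher, Lipc 2.04-fold and 2.97-fold, and Entpd3 2.00-fold and 2.32-fold.

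Genes of the 64 named here were chosen after their values were seen. Mmp13 was at 4.05 against 303 CPM and 58.7 against 172 CPM, but it was confined to few cells, with 91.1% and 65.1% of its UMIs in 5 cells of each library. Panx3, a hemichannel gene of prehypertrophic cartilage and young osteoblasts, was spread more widely. It was at 51.0 against 179 CPM and 40.2 against 131 CPM, with a UMI in 18 of 42 against 37 of 42 cells and in 27 of 77 against 68 of 78. These counts are at each cell's own depth, and in library 2 the high-Bglap cells had the lower median (12772 against 23937 UMIs). The Hedgehog receptor Ptch1, itself a target of that pathway, was at 10.5 against 43.4 CPM and 12.6 against 49.9 CPM, and the Wnt inhibitor Wif1 at 72.1 against 168 CPM and 77.1 against 160 CPM. The nucleolar protein genes Npm1, Ncl, Fbl, and Nop58 were also among the 64, with Npm1 at 411 against 1063 CPM and 515 against 1137 CPM and Ncl at 172 against 505 CPM and 167 against 344 CPM. Members with at least 2 of 7 cycling genes at 2 UMIs numbered 2 of 42 and 1 of 77 with high Bglap and 4 of 42 and 9 of 78 without. Leaving them out, a step added after seeing the data, left 7 genes higher and 25 lower, 21 of which were among the 64.

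Of 12 transcription factors of the lineage compared across the same split, none was called in either direction, with medians of -0.11 and 0.07. Sp7 was at 0.998 and 1.08 times and Runx2 at 0.737 and 1.19 times in high-Bglap cells. Col1a1 was 1.58-fold and 1.68-fold higher and Dcn 1.75-fold and 2.21-fold. Spp1 turned with the library, at 0.64 and 1.85 times.

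**Figure D5:**
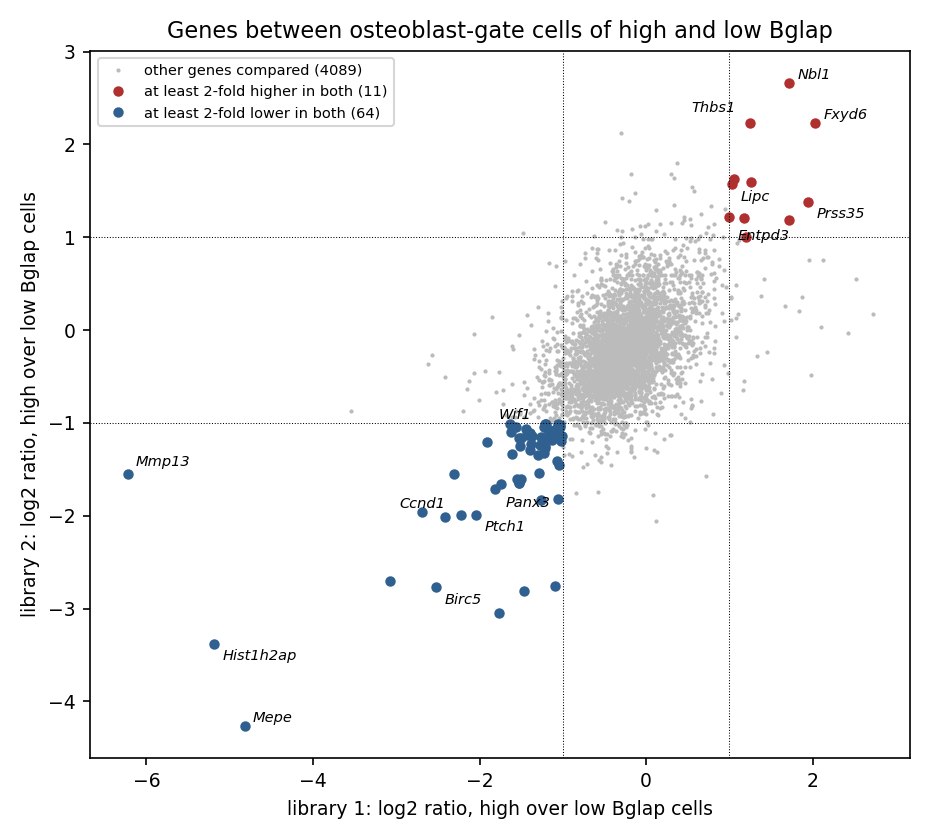
Log2 ratio of CPM in members with Bglap above the library median to that in the other members, library 2 against library 1, with each point a gene and dotted lines at 2-fold. In both libraries 11 genes lie beyond 2-fold higher (red) and 64 beyond 2-fold lower (blue), and a gene with 0 UMIs in a group, such as Mepe in library 2, is drawn at the floor of 3 UMIs.

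Members were also split by Dmp1 at the 2 UMIs that the gate itself used, so the split describes the choice as well as the cells. Members with at least 2 Dmp1 UMIs numbered 42 of 84 and 40 of 155. Over 4166 genes, 21 (0.504%) were at least 2-fold higher in them in both libraries and none (0%) at least 2-fold lower. All Mepe UMIs of members were in Dmp1 cells, from the few cells described above. Ptprz1, a receptor phosphatase, was at 75.4 against 7.43 CPM (10.2-fold) and 98.0 against 7.41 CPM (13.2-fold), with 70.5% and 57.1% of its UMIs in 5 cells of each library. The homeobox gene Irx5 was at 190.5 against 72.4 CPM (2.63-fold) and 95.6 against 30.6 CPM (3.13-fold), in 31 of 42 against 25 of 42 cells and 23 of 40 against 41 of 115. Bmp4, a bone-inducing ligand, was at 58.3 against 10.2 CPM and 46.6 against 18.5 CPM, and the pyrophosphate exporter gene Ank at 80.1 against 28.8 CPM and 38.2 against 13.0 CPM. Bglap was not called, at 17296 against 20141 CPM and 7613 against 10588 CPM, and neither was Col1a1, at 104304 against 96785 CPM and 85444 against 88865 CPM. Dmp1 cells were deeper, with a median of 31624 against 26908 UMIs and 21144 against 17991 UMIs.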

How the data were processed

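Mouse periosteal cells were profiled by 10x 3′ scRNA-Seq in 2 libraries. The authors deposited raw UMI counts per gene and barcode, not normalized and not pooled. The submitters' processing notes name Cell Ranger 6.1.2 and mm10. The methods give default parameters, written for an alignment to the human genome. Of 32288 features, 32285 are Ensembl identifiers and 32158 were found in GENCODE M21 (GRCm38), which gave the coordinates. Human samples and their files were not used here.

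Cells needed at least 500 genes, 500 UMIs, and at most 10% mitochondrial UMIs. Doublets were not called by a dedicated tool. Cells carrying marker lists of other types were instead left out as alternatives. UMIs were summed per library and gate and divided by the summed UMIs (CPM). A gene was compared with at least 20 UMIs in both gates together in each library and called at 4-fold in the same direction in both. Splits among members used 2-fold and 50 UMIs. Ratio intervals are exact (Clopper-Pearson, 95%), and a group at 0 UMIs was set to 3 UMIs. Intervals and floors cover counting error only. Detection was also computed at 1000 UMIs per cell. No p-value is given, since the members were chosen on the same profile and the 2 libraries form 1 group, which the labels do not say came from separate animals.

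The members and lists were chosen with earlier results of these data known. Besides genes of the lists, named genes were, at 50 or more member UMIs per library, the 20 with the largest smaller ratio over other cells (1 is not reported here), the 10 highest and 10 lowest against Alpl-gated cells, and the 10 with the largest smaller variance over mean. Genes named in the splits, the reporters, and Xist were chosen after their values were seen. The alternatives were 4 gate genes, mean CPM per cell, TMM factors (edgeR 4.0.16 in R 4.3.3), other UMI minimums and folds, other mitochondrial limits, and each library alone. The ratio and its interval were tested on simulated Poisson sums. These held no spread between cells, so the simulation does not cover such spread. Python 3.11.15, numpy 2.4.6, pandas 2.3.3, scipy 1.17.1, and matplotlib 3.10.9 were used.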

Additional observations from a re-analysis of the deposited data

Results flagged for a closer look

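Reporter transcripts, which are not part of the mouse genome, were found in libraries labelled WT. Members of library 2 held 387 EGFP UMIs, against 13 in Ptprc-positive cells of the same library and 0 in library 1. The other Ptprc-negative cells held 6437, of which 6106 were in cells with cartilage collagens (975.5 CPM, against 129 CPM in members). Of the UMIs in members, 74.9% were in 5 cells. Members held 123 tdTomato UMIs in library 1 and 643 in library 2, at 52.0 and 214.5 CPM against 17.7 and 46.8 CPM in Ptprc-positive cells. Cells with cartilage collagens were at 54.8 CPM of tdTomato in library 1, and fibroblast-gated cells at 482 CPM in library 2. The source of the reporter UMIs was not tested.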

How the results depend on the processing

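Of the member counts, only that with 4 gate genes in library 2 moved beyond 1.5 times, to 95. For the leading named genes, counted 40 times as some lead 2 comparisons, 463 of 471 alternative values stayed, 8 moved, and none turned direction. Against the other Ptprc-negative cells, higher genes were 168 with at least 100 UMIs, 537 with at least 1 UMI, 786 at 2-fold, and 107 at 8-fold, and lower genes 2716 at 2-fold and 591 at 8-fold. One library alone gave 313 to 1634 higher and 1873 to 2293 lower. Against Alpl-gated cells, higher genes were 64 by mean CPM per cell, 120 by TMM factors, 178 at 2-fold, and 9 at 8-fold, and lower genes 116 by TMM factors, 44 with at least 100 UMIs, 1010 with at least 1 UMI, 1269 at 2-fold, and 92 at 8-fold. One library alone gave 107 to 224 higher and 478 to 972 lower. Against cartilage collagen cells, higher genes were 134 with at least 100 UMIs, 526 at 2-fold, and 102 at 8-fold, lower genes 190, 949, and 253, and 1 library alone gave 351 to 391 higher and 562 to 1092 lower. Against fibroblast-gated cells, higher genes were 283 by TMM factors, 460 at 2-fold, and 71 at 8-fold, lower genes 132 with at least 100 UMIs, 1209 with at least 1 UMI, 1397 at 2-fold, and 277 at 8-fold, and 1 library alone gave 272 to 387 higher and 845 to 1506 lower. Without cycling members, the Bglap split gave 7 higher and 25 lower genes.

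Alternatives added after seeing the data left out members with markers of 4 other cell types (82 and 146 left), the deepest 10% (75 and 139), or those with EGFP (84 and 127), and moved no count of called genes beyond 1.5 times. Leaving out members by 6 lists left 1 of 84 in library 1 and gave no value. TMM moved the median of all genes against the other cells to -0.44 and -0.25, and against fibroblast-gated cells to 0.27 and 0.13. No paired analysis was possible because no value here comes from a test between samples, and each comparison was already made within a library. The 18 fibroblast-gated and 40 Alpl-gated cells of library 1 limit those comparisons.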
